A study of Mus musculus with 9 samples.

Results

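The genes described here are 10 keratin and epithelial adhesion genes of the mouse prostate: the keratins Krt5, Krt7, Krt8, Krt14, Krt18 and Krt19, the cadherin Cdh1, the adhesion glycoprotein Epcam and the claudins Cldn3 and Cldn4. They were chosen by name, as every spotted clone whose annotated gene symbol includes a name of the set. Of 17664 clones on the array, 17207 of them with values, 18 met this rule. Krt7, Krt18, Cdh1, Epcam, Cldn3 and Cldn4 had 13 clones annotated to a single symbol, and these 6 genes were measured among 8106 genes. Krt5, Krt8, Krt14 and Krt19 were annotated only on 5 clones that carry several symbols, so these clones are given by their number and were assigned to no gene. All 18 clones had a value on all 9 arrays, so none was lost to a filter.

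The samples were stroma laser-microdissected from prostates of male FVB mice carrying CR2-TAg, a transgene that expresses SV40 large T antigen and gives neuroendocrine prostate tumors. Each of the 9 arrays held the amplified stromal RNA of 1 mouse: 6 mice with invasive cancer at 24 weeks of age and 3 mice with prostate intraepithelial neoplasia (PIN), the lesion that precedes invasion, at 10 weeks (replicates 2, 3 and 4). The study used another PIN sample, which was not analysed here. All mice carried the transgene and bore either PIN or invasive cancer, so there was no group without lesions. Age changed together with stage, so the effects of both cannot be told apart. Values are log2 ratios, for each clone, of the Cy5-labeled sample over a Cy3-labeled pool of the PIN samples, with the same dyes on every array. A value of 0 means the level of the pool, and each PIN sample was compared with a pool that held it.

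Keratins are the intermediate filament proteins of epithelial cells, built as pairs of a type I and a type II chain. In the prostate, Krt8 and Krt18 are the pair of luminal cells, whereas Krt5 and Krt14 mark basal cells. Cdh1, or E-cadherin, joins neighboring epithelial cells at adherens junctions, Epcam is an adhesion glycoprotein of the lateral membrane, and claudins form the strands of tight junctions that seal the epithelial sheet. Fibroblasts make little of these proteins. The ratios give a level relative to the pool only, so whether the markers of stroma or of epithelium were present at all was not checked. In bulk RNA of this kind, fewer cells of a type and less RNA per cell cannot be told apart.

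The promoters of 5 genes are shown because their genes gave the values below, and because transcription factors of the Snail and Zeb families, which repress epithelial genes, bind the E-box CAGGTG. The windows run from 250 bases before to 50 bases after the gene start in RefSeq (mouse build GRCm38.p6). They are written 5′ to 3′ on the strand of the gene, and CAGGTG or its reverse complement CACCTG is in capitals.
Krt18 (chr15:102027966-102028265, plus strand): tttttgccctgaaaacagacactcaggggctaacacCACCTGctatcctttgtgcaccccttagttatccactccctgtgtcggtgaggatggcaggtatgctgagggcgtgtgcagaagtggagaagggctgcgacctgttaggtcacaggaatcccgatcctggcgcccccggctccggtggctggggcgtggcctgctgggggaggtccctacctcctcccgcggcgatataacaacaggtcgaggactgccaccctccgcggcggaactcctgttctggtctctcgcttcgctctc
Krt7 (chr15:101412153-101412452, plus strand): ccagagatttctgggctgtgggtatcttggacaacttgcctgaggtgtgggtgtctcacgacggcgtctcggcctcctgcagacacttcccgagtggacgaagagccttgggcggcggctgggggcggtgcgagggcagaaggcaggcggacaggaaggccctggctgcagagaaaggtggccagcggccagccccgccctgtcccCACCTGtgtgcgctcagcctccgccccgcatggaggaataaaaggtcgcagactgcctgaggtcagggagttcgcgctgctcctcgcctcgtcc
Epcam (chr17:87635729-87636028, plus strand): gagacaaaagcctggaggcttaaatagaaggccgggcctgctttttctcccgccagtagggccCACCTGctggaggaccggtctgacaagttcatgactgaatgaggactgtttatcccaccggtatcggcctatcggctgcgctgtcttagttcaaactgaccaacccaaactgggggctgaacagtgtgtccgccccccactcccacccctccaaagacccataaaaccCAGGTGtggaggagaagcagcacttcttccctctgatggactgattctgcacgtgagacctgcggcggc
Cldn3 (chr5:134985964-134986263, plus strand): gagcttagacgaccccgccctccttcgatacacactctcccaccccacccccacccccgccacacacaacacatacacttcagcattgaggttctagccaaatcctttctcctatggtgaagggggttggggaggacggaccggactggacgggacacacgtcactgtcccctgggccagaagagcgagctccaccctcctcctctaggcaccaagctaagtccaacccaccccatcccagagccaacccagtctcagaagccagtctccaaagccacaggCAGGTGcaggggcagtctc
Cldn4 (chr5:134946885-134947184, minus strand): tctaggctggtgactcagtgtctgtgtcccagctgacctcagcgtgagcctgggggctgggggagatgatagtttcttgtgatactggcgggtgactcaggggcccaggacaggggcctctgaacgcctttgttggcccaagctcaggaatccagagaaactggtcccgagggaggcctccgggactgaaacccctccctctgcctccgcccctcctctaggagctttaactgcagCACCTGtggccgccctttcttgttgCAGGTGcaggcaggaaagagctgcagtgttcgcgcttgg
Windows were found for 8 of the 10 genes, and none for Cdh1 and Krt19. Of these 8 windows, 7 held the E-box on either strand, and Krt14 did not, whereas 20.2% of 32851 windows of the same length held it. The 7 windows were also richer in G and C (57.0 to 66.3%) than the median of all windows (52.7%), and that of Krt14 was poorer (48.3%). Cldn4 and Epcam had 2 copies each. With the gene start as base 1, they began at positions -14 and 12 in Cldn4 and at -187 and -19 in Epcam. The single copies began at -214 in Krt18, at -44 in Krt7 and at 32 in Cldn3. TATAAA, which was in 13.6% of all windows, was found only in Krt8 among these genes, and no copy overlapped an E-box. A match of letters is a description of the window and shows no binding. Krt8 and Krt18 lie on the same chromosome, with the window of Krt8 at chr15:102004293-102004592 on the minus strand, and Cldn3 and Cldn4 are likewise near each other on chromosome 5.

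PIN replicate 4 and invasive replicate 3 stood apart from the other arrays of their stage. Over all clones, PIN replicate 4 had a Pearson r of 0.18 with PIN replicate 2 and 0.19 with PIN replicate 3, whereas PIN replicates 2 and 3 had 0.67 with each other. Over the 6 mice with invasive cancer, invasive replicate 3 had the lowest median of macrophage, fibroblast and endothelial genes, and also the highest median of the keratin and adhesion genes. The arrays held 17189 to 17206 values each. The stages were compared with limma for each clone and each gene, and a difference (invasive minus PIN) is said to pass where its adjusted p was under 0.15, as in the false discovery rate of the study.

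Of the 6 genes, 1 passed and 5 did not, where 5.64% of all 8106 genes passed. Krt7, a type II keratin of glandular and ductal epithelia, was higher in invasive cancer stroma. Krt18, Cldn3, Cldn4 and Cdh1 averaged lower and Epcam higher, and none of these differences passed. Of the 18 clones, 0 passed in limma, where 2.16% of all clones passed. Between the stages, 1 of the 6 genes and 1 of the 18 clones did not overlap, as 7.85% of all genes and 6.25% of all clones did. At an adjusted p under 0.05, 0 of the 6 genes and 0.938% of all genes passed in limma. At an unadjusted p under 0.05 there were 1 of the 6 genes and 15.0% of all genes, and 4 of the 18 clones (22.2%) and 11.9% of all clones. With few arrays and this spread, a difference that did not pass is not shown to be absent.

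**Figure D1:**
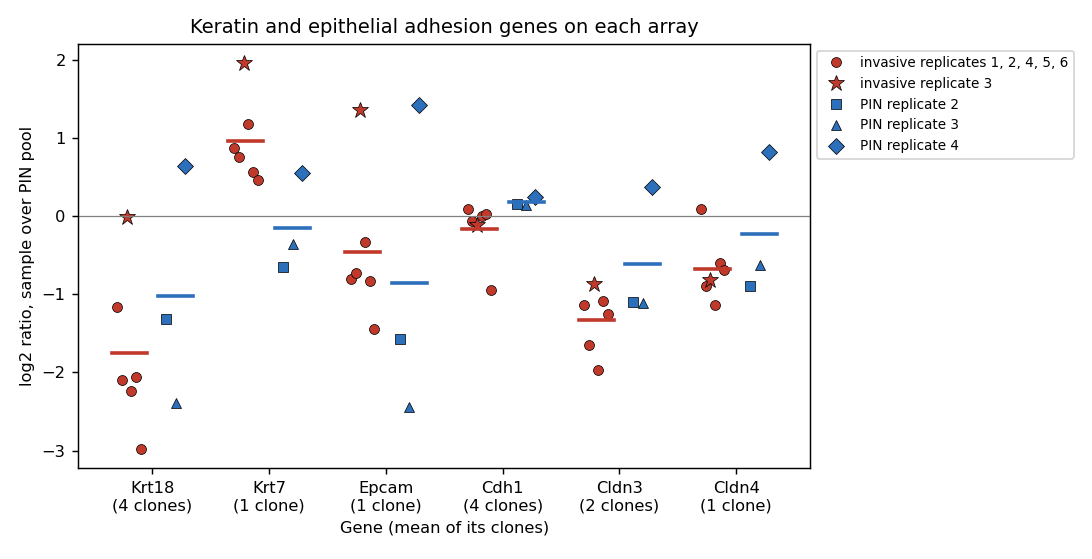
Log2 ratio of sample over PIN pool (y axis) of the 6 genes measured by clones of a single symbol (x axis), 1 point per array, with 6 invasive arrays on the left and 3 PIN arrays on the right of each gene; horizontal bars are group means. PIN replicate 4 was the highest of the 9 arrays in 5 of the 6 genes, and the invasive mean of Krt7 (0.97) lay above its PIN mean (-0.15).

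Krt18 encodes the type I keratin of luminal cells. On invasive replicates 1 to 6 it was at -1.16, -2.09, -0.01, -2.24, -2.06 and -2.98, against -1.32, -2.39 and 0.65 on PIN replicates 2, 3 and 4. Invasive replicate 3 and PIN replicate 4 stood near or above the level of the pool and the other 7 arrays well below it. The 2 groups thus overlapped over nearly their whole range. The pool held PIN replicate 4, so a high level there also raised the level that 0 stands for. The log2 difference was -0.74 (SE 0.66, 95% interval -2.18 to 0.71, adjusted p = 0.676 from limma). It was 0.10 without PIN replicate 4 (adjusted p = 0.962) and -1.43 without PIN replicate 3 (adjusted p = 0.457), so its direction rested on a single PIN mouse. The 4 clones of Krt18 followed each other closely, with r of 0.95 to 0.99 over the 9 arrays, and their differences lay between -0.90 and -0.45.

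Clones 1144 and 16102 were annotated to both Nlrp4e and Krt8, the type II partner of Krt18. Clone 1144 had -0.78, -0.82, 0.98, -0.95, -1.15 and -2.37 on the invasive arrays, against -2.42, -2.13 and 1.32 on the PIN arrays. Clone 16102 had -1.27, -1.21, 0.91, -1.03, -1.24 and -2.16 on the invasive arrays, against -2.05, -2.78 and 1.62 on the PIN arrays. Both were above the pool only on invasive replicate 3 and PIN replicate 4. Their differences, 0.23 (SE 0.78) and 0.07 (SE 0.83), were far smaller than their errors. Over the 9 arrays the pair had r of 0.97 with each other and 0.81 to 0.89 with the clones of Krt18.

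Krt7 is the keratin of the set that passed. It was at 0.87, 0.76, 1.96, 1.18, 0.57 and 0.47 on the invasive arrays, against -0.65, -0.35 and 0.55 on the PIN arrays. All 6 invasive arrays lay above the pool and above PIN replicates 2 and 3, and invasive replicate 6 lay just below PIN replicate 4, so the groups overlapped. Krt7 averaged 0.97 ± 0.55 in invasive stroma (SD, n = 6) and -0.15 ± 0.62 in PIN stroma (SD, n = 3), which is 2.18-fold higher in invasive stroma (log2 difference 1.12, SE 0.34, adjusted p = 0.140 over all genes from limma). The same single clone had an adjusted p of 0.201 over all clones in limma and did not pass there. The difference stayed between 0.87 and 1.47 when each array was left out in turn. Krt7 passed among genes without invasive replicate 3 (adjusted p = 0.0897) and without PIN replicate 4 (adjusted p = 0.0894). It did not pass without any other array, with an adjusted p of 0.151 to 0.239 without invasive replicates 1, 2, 4, 5 or 6, 0.446 without PIN replicate 2 and 0.352 without PIN replicate 3 (limma).

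Neuroendocrine genes, which mark the tumor cells of this model, also had their highest median on invasive replicate 3. Of the 7 such genes measured, 1 passed as higher, where 3.75% of all genes did, and 7 had a difference above 0, as 52.0% of all genes did. Their median was 1.08, 1.65, 2.31, 1.66, 1.46 and 0.40 on the invasive arrays, against 0.66, -0.02 and -0.10 on the PIN arrays. Foxa2, a transcription factor of neuroendocrine prostate tumors, was at 2.19, 1.62, 4.45, 3.12, 2.44 and 0.46 on the invasive arrays and at -0.48, -0.23 and 0.35 on the PIN arrays (log2 difference 2.50, SE 0.64, adjusted p = 0.0871 from limma). Single genes did not share 1 order of arrays. Of the 7, 4 were highest on invasive replicate 3, as 14.5% of all genes were, whereas Scg3 peaked on replicate 2 (3.69), Snap25 on replicate 4 (5.05) and Scg2 had its lowest value on replicate 3 (-0.51). The part of tumor cell RNA in the difference of Krt7 was not tested.

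The clones of the other type I and type II keratins had differences of different size. Clones 13312 and 14347 carried the symbols Krt9, Krt19, Krt15, Krt14 and Krt13, a family of similar sequence whose transcripts a spotted cDNA may not separate. Clone 13312 had -2.82, -3.11, -1.87, -2.90, -2.55 and -3.66 on the invasive arrays, against -2.01, -2.31 and 1.91 on the PIN arrays. Its difference of -2.02 (SE 0.74, adjusted p = 0.280 from limma) was the largest of the 18 clones in size and became -0.66 (adjusted p = 0.535) without PIN replicate 4, since PIN replicates 2 and 3 lay close to the invasive arrays. Clone 14347 had -0.26, -1.94, 0.42, -1.47, -1.62 and -2.46 on the invasive arrays, against -0.26, -0.88 and 1.78 on the PIN arrays. Its difference was -1.43 (SE 0.65, adjusted p = 0.412), or -0.65 (adjusted p = 0.748) without PIN replicate 4, and it passed without invasive replicate 3 (adjusted p = 0.143, limma). The clone of Krt5, Krt6b and Krt6a, which are type II keratins of stratified and basal epithelia, ran from -0.41 to 1.01 in invasive stroma and from 0.20 to 0.61 in PIN stroma, with overlap. Its difference was -0.19 (SE 0.29, adjusted p = 0.892).

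**Figure D2:**
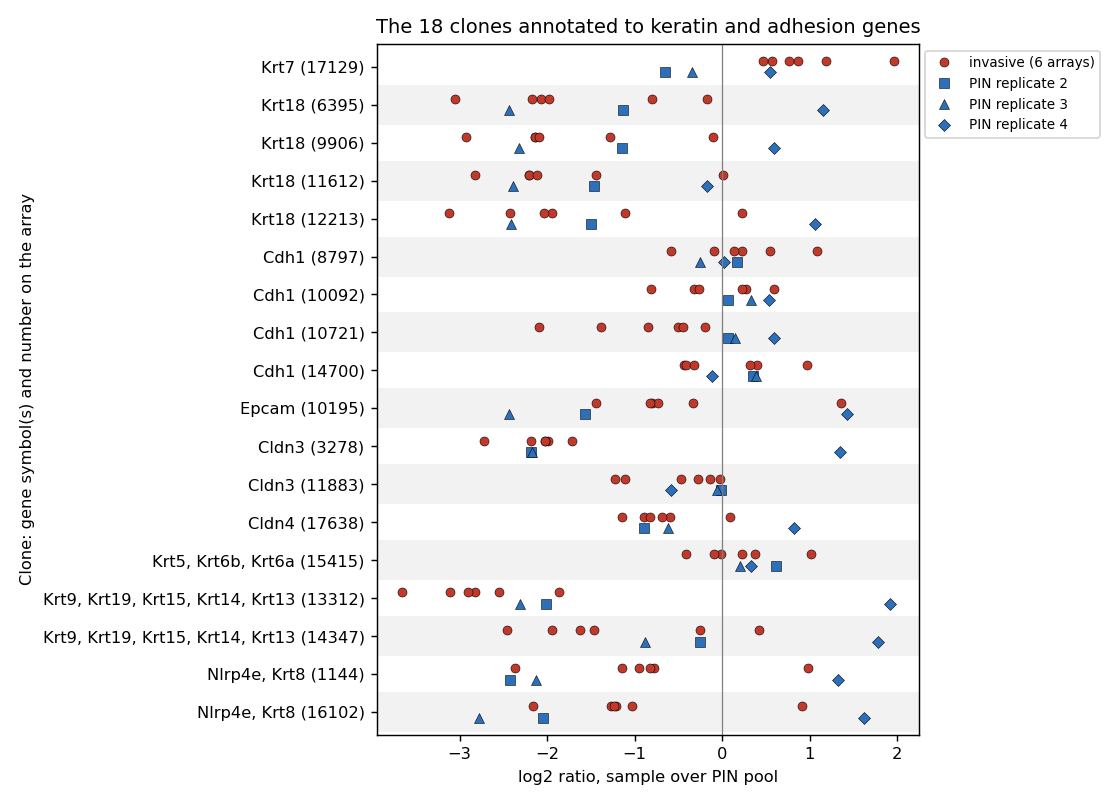
Log2 ratio of sample over PIN pool (x axis) of each of the 18 clones (rows, with annotated gene symbols and clone number), 6 invasive arrays as circles on the upper line and PIN replicates 2, 3 and 4 as square, triangle and diamond on the lower line of each row. PIN replicate 4 lies far right of PIN replicates 2 and 3 in the clones of Krt18, Epcam and Nlrp4e with Krt8 and in clone 3278 of Cldn3 (1.34 against -2.18 and -2.17), and close to them in the 4 clones of Cdh1.

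Among the adhesion genes, Epcam followed the clones of Nlrp4e and Krt8. It was at -0.80, -0.73, 1.36, -0.33, -0.83 and -1.44 on the invasive arrays, against -1.57, -2.44 and 1.43 on the PIN arrays. PIN replicate 4 and invasive replicate 3 were again the 2 highest arrays, and PIN replicates 2 and 3 were the lowest of all. The difference was 0.40 (SE 0.74, 95% interval -1.22 to 2.02, adjusted p = 0.868 from limma). It was 1.54 (adjusted p = 0.226) without PIN replicate 4, where all 6 invasive arrays lay above both PIN arrays. How many of all genes separate in this way with so few PIN arrays was not counted. The difference of Epcam was -0.39 (adjusted p = 0.908) without PIN replicate 3. Epcam had r of 0.99 with clone 16102, 0.95 with clone 1144 and 0.82 with Krt18 over the 9 arrays.

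Cdh1, as the mean of its 4 clones, had the smallest PIN spread of the 6 genes (SD 0.06), whereas its single clones had PIN SDs of 0.22 to 0.29. It was at 0.10, -0.06, -0.11, 0.00, 0.03 and -0.95 on the invasive arrays, against 0.16, 0.15 and 0.25 on the PIN arrays. All 6 invasive arrays lay below all 3 PIN arrays, a pattern found in this direction in 2.99% of genes, but 5 of the 6 lay close to the pool. The difference was -0.36 (SE 0.24, 95% interval -0.87 to 0.16, adjusted p = 0.535 from limma). It was -0.20 without invasive replicate 6 (adjusted p = 0.678).

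The 4 clones of Cdh1 disagreed, so their mean is an uncertain measure of the gene. Clone 10721 had -0.51, -0.85, -1.39, -0.45, -0.20 and -2.09 on the invasive arrays, against 0.06, 0.15 and 0.59 on the PIN arrays. It did not overlap between stages, as 2.52% of all clones did in this direction, and it was 2.26-fold lower in invasive stroma (difference -1.18, SE 0.37, adjusted p = 0.205 from limma), which did not pass. The other 3 clones overlapped, with differences of 0.24 for clone 8797, -0.36 for clone 10092 and -0.12 for clone 14700. Clones 10092 and 10721 had r of 0.89 over the 9 arrays, and the other pairs of Cdh1 clones had r between -0.24 and 0.26.

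Cldn3 was at -1.13, -1.65, -0.87, -1.97, -1.08 and -1.25 on the invasive arrays, against -1.10, -1.11 and 0.38 on the PIN arrays. The invasive arrays lay around PIN replicates 2 and 3, and PIN replicate 4 was above them all. The difference was -0.72 (SE 0.34, 95% interval -1.46 to 0.03, adjusted p = 0.352 from limma) and -0.22 (adjusted p = 0.775) without PIN replicate 4. Its 2 clones had r of 0.04 with each other. Clone 3278 was at 1.34 on PIN replicate 4 and between -2.72 and -1.72 on the invasive arrays, whereas clone 11883 was at -0.58 on PIN replicate 4 and between -1.22 and -0.03 on the invasive arrays. On the 6 invasive arrays alone the same clones had r of 0.86.

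Cldn4, a claudin near Cldn3 on chromosome 5, was at 0.09, -0.89, -0.82, -1.14, -0.60 and -0.69 on the invasive arrays, against -0.89, -0.62 and 0.82 on the PIN arrays. Here too PIN replicate 4 was the highest array and the remaining 8 overlapped. The difference was -0.45 (SE 0.36, 95% interval -1.23 to 0.34, adjusted p = 0.631 from limma) and 0.08 (adjusted p = 0.936) without PIN replicate 4. Cldn3 and Cldn4 had r of 0.85 over the 9 arrays and 0.55 over the 6 invasive arrays.

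**Figure D3:**
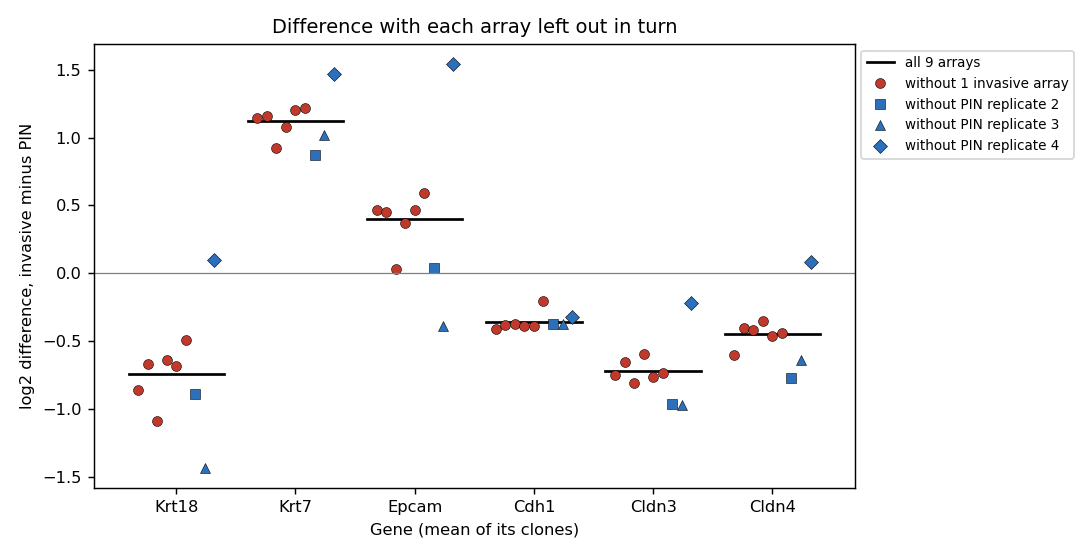
Log2 difference, invasive minus PIN (y axis), of the 6 genes (x axis) with all 9 arrays (black line) and with each array left out (points). Leaving out PIN replicate 4 moved Krt18 to 0.10, Epcam to 1.54 and Cldn4 to 0.08, whereas Krt7 stayed between 0.87 and 1.47.

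The differences were read against the spread among mice of each stage. Over the 6 invasive arrays Krt18 and Epcam varied widely, with SDs of 1.03 and 0.96 against a median of 0.34 over all genes, whereas Krt7 had 0.55, Cldn4 0.42, Cldn3 0.41 and Cdh1 0.39. The SD over the 3 PIN arrays was 2.03 for Epcam, 1.54 for Krt18, 0.92 for Cldn4, 0.86 for Cldn3, 0.62 for Krt7 and 0.06 for Cdh1 (0.22 to 0.29 for its single clones), against a median of 0.28 over 8087 genes with values on all arrays. Epcam ranked 27 and Krt18 ranked 53 from the top among these genes. The SDs of Epcam, Krt18, Cldn4 and Cldn3 were above the level of 0.76 that 95% of genes stayed under. In 5 of the 6 genes the PIN SD was larger than the invasive SD, as in 37.6% of all genes. The median PIN SD of the 6 genes was 0.89 with all PIN arrays and 0.20 without PIN replicate 4.

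**Figure D4:**
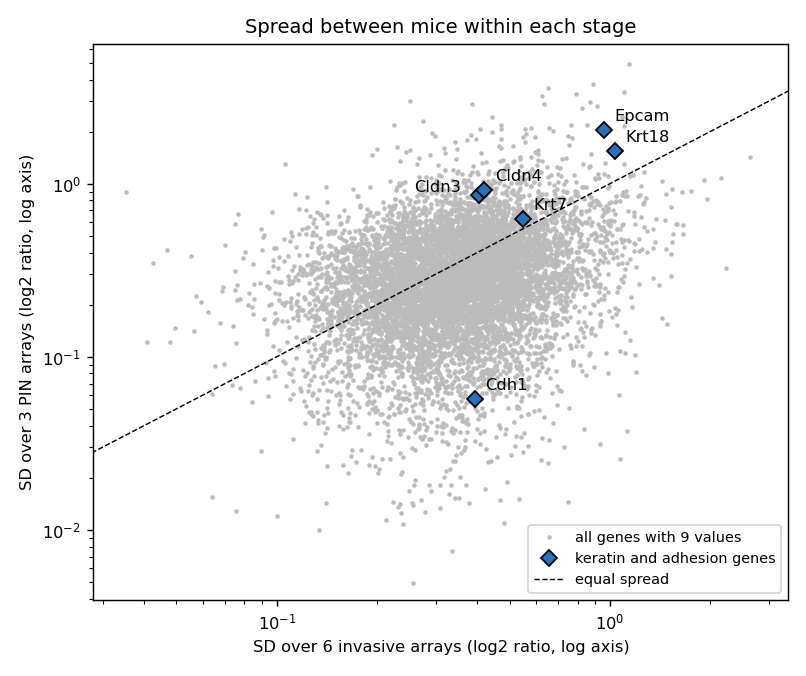
SD of the log2 ratio over the 6 invasive arrays (x axis) and over the 3 PIN arrays (y axis) of 8087 genes (grey points), both on log axes, with the 6 keratin and adhesion genes as blue diamonds; the dashed line marks equal spread. Epcam (0.96 in invasive and 2.03 in PIN stroma) and Krt18 (1.03 in invasive and 1.54 in PIN stroma) lie near the upper edge, and Cdh1 lies far below the line with a PIN SD of 0.06 for the mean of 4 clones that had 0.22 to 0.29 singly.

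Across arrays, the genes formed no single block. Krt18 had r of 0.82 with Epcam, 0.77 with Cldn3, 0.63 with Cldn4, 0.51 with Cdh1 and 0.31 with Krt7 over the 9 arrays. This order depended on the arrays used. Without PIN replicate 4 the values were, in the same order, 0.70, 0.49, 0.16, 0.43 and 0.46. Over the 6 invasive arrays they were 0.87, 0.55, 0.23, 0.51 and 0.84. Krt7 followed Epcam most closely, with r of 0.72 over all arrays and 0.98 over the 6 invasive arrays. These are descriptions over few arrays that share the reference pool and, in part, a stage. The genes outside the set most like Krt18 over the 9 arrays were Guk1 (r = 0.97), which encodes guanylate kinase, Mecr (0.97), an enzyme of mitochondrial fatty acid synthesis, the Mediator subunit gene Med28 (0.95), Marveld2 (0.94), which encodes the tight junction protein tricellulin, and the adaptor gene Grb7 (0.94). Of 8081 genes compared, 19 had r over 0.9, and the median r was 0.04.

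Other epithelial genes were read from 7 lists, chosen by function. These were claudins and tight junctions, adherens junction partners of Cdh1, desmosomes, and hemidesmosomes and basal cells. The rest were epithelial transcription and splicing regulators, prostate luminal secretory genes, and other keratins. Whether each listed gene is specific to epithelium was not checked, so counts over these lists can include genes of other cells. Of the 69 genes measured, 2 were lower in invasive stroma, 0 were higher and the rest did not pass, where 5.64% of all genes passed, and their median difference was -0.09 against 0.02 over all genes. Pkp2, a plakophilin of desmosomes, was at -0.62, -2.03, -0.90, -1.12, -0.67 and -1.51 on the invasive arrays, against 0.11, 0.27 and -0.53 on the PIN arrays, without overlap (difference -1.09, SE 0.32, adjusted p = 0.120 from limma). Tspan8, a tetraspanin of secretory epithelia, was at -2.52, -2.49, -1.88, -2.54, -2.89 and -2.73 on the invasive arrays, against -1.51, -1.58 and 1.20 on the PIN arrays (difference -1.88, SE 0.51, adjusted p = 0.101). In Tspan8, as in the gene values of Cldn3 and Cldn4, PIN replicate 4 lay far above the other PIN arrays, whereas in Pkp2 it was the lowest of them.

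By list, 0 of 17 tight junction genes passed, and Marveld3, a tight junction membrane protein, came nearest, at 0.45 (SE 0.17, adjusted p = 0.226 from limma). None of the 12 adherens junction genes passed, the smallest p being that of Ajuba, a LIM-domain protein of these junctions (-0.40, SE 0.29, adjusted p = 0.585). Cdh3, the P-cadherin of basal cells, had -0.37 (SE 0.28). The desmosome list had 1 of 8 lower, which was Pkp2, and the luminal secretory list 1 of 9 lower, which was Tspan8. Of 9 hemidesmosome and basal cell genes 0 passed, with 0.67 (SE 0.26, adjusted p = 0.238) for the laminin receptor subunit gene Itga6. Of 13 epithelial regulators 0 passed, with -0.93 (SE 0.35, adjusted p = 0.220) for the ETS factor gene Ehf, whose PIN arrays were at -0.39, -0.92 and 1.03. The stress keratin gene Krt16 was measured on 5 invasive arrays, at -0.52 to -0.17, against -0.60, -0.47 and 1.34 on the PIN arrays (-0.41, SE 0.38, adjusted p = 0.690).

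The height of PIN replicate 4 extended beyond the keratin and adhesion genes. It was the highest of the 9 arrays in 5 of these 6 genes, in 26 of 68 other epithelial genes (38.2%) and in 15.7% of all genes with 9 values. The PIN SD passed 0.76 in 4 of the 6 genes and in 17 of the 68. Of the 68, 18 had r over 0.7 with Krt18 (26.5%), as did 4.22% of all genes. The median of the 13 epithelial regulators was 0.37 on PIN replicate 4, against -0.82 on PIN replicate 2 and -0.72 on PIN replicate 3, and that of the 6 keratin and adhesion genes was 0.60, against -0.99 and -0.87. The medians of the claudin and tight junction list and of the adherens junction list did not move in this way and stayed between -0.26 and 0.00 on the 3 PIN arrays. Single claudins differed from that median. Cldn7 was at -2.45, -2.21 and 1.28 on PIN replicates 2, 3 and 4 (PIN SD 2.09), with r of 0.78 with Krt18. Cldn5 went the other way, at 1.08, 0.57 and -0.09.

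The medians of fibroblast and mesenchymal genes were lower on PIN replicate 4 and invasive replicate 3 than on the other arrays of their stage. Some single genes went the other way. Pdgfrb on PIN replicate 4 (0.16) and Cdh2 on invasive replicate 3 (1.53) had the highest values of their stage. PIN replicate 4 and invasive replicate 3 had the highest medians of the keratin and adhesion genes (0.60 and -0.06). Invasive replicate 3 was the highest array in 8 of 68 other epithelial genes (11.8%) and in 14.5% of all genes. Over the invasive arrays, its medians were highest in the desmosome (0.05), regulator (0.02) and adherens junction (0.01) lists. That of the hemidesmosome and basal cell list was the lowest (-0.33). On PIN replicate 4 the median of 10 fibroblast genes was -0.55, against 0.19 and 0.14 on PIN replicates 2 and 3, that of 6 smooth muscle genes was -0.60 against 0.19 and 0.36, and that of 10 mesenchymal genes was -0.50 against 0.13 and 0.43. On invasive replicate 3 the fibroblast median was 0.26, against 0.87 to 1.38 on the other 5 invasive arrays, the mesenchymal median was 0.07 against 0.53 to 1.03, and the macrophage median was 0.84 against 2.68 to 2.83. The median of smooth muscle genes was higher there than on the others, at -0.39 on invasive replicate 3 and -3.96 to -1.08 on the other 5. The part of the share of epithelial RNA in these differences between mice was not tested.

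Between stages, 4 of 10 fibroblast genes, 2 of 10 mesenchymal genes, 6 of 6 macrophage genes and 2 of 7 endothelial genes were higher in invasive stroma, and 4 of 6 smooth muscle genes were lower, with no member of these lists passing in the opposite direction. The difference of the collagen gene Col3a1 was 1.55 (SE 0.31, adjusted p = 0.0431 from limma), the fibronectin gene Fn1 2.23 (SE 0.46, adjusted p = 0.0458) and the smooth muscle myosin gene Myh11 -2.57 (SE 0.78, adjusted p = 0.136). Among all genes 3.75% passed as higher and 1.89% as lower. The medians of these lists over the invasive arrays lay between -3.96 and 2.83, against -0.60 to 0.43 over the PIN arrays. The narrower PIN range is in part built in, since the pool was made of the PIN samples.

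**Figure D5:**
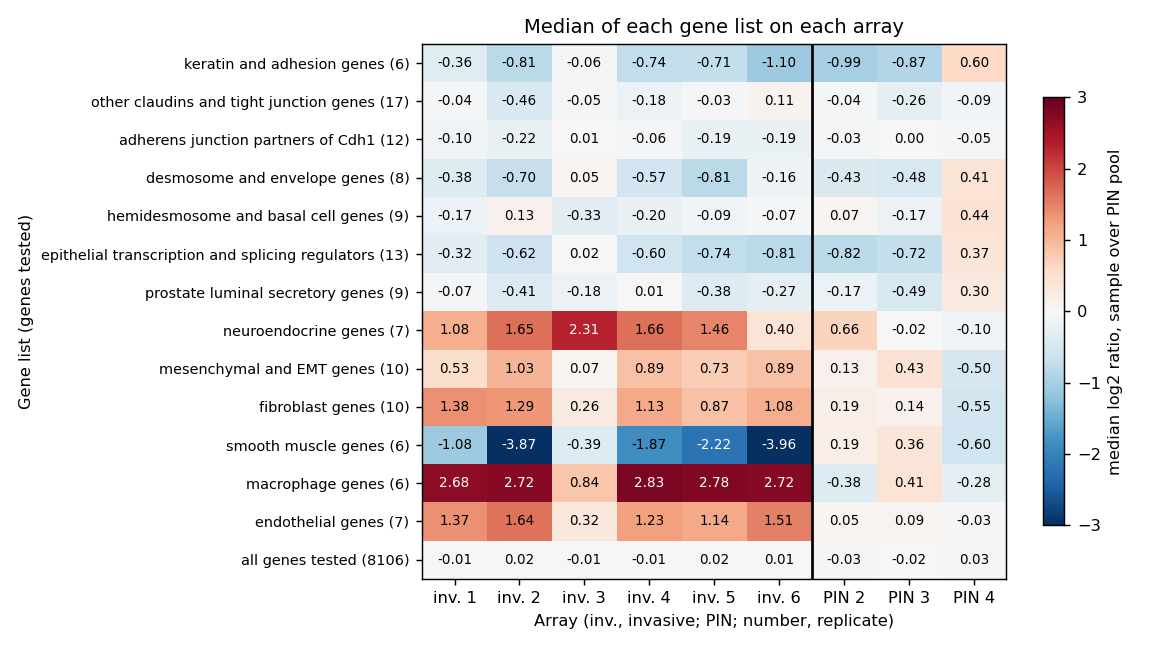
Median log2 ratio of sample over PIN pool (color and printed number; the color scale ends at 3 in either direction) of each gene list (rows, with genes measured) on each array (columns, 6 invasive on the left and 3 PIN on the right). The keratin and adhesion genes were at 0.60 on PIN replicate 4, against -0.99 and -0.87 on PIN replicates 2 and 3, and fibroblast genes at -0.55 against 0.19 and 0.14.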

How the data were processed

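Stromal RNA of 9 mice was hybridized to spotted cDNA clones, with 6 invasive (24 weeks) and 3 PIN arrays (10 weeks). The authors extracted RNA from microdissected stroma, amplified it in successive rounds, and normalized each array by print-tip lowess without background subtraction. Each deposited value is thus a log2 ratio, Cy5 sample over Cy3 PIN pool, and dyes were never swapped. Depth has no counterpart on arrays, spot intensities were not used, and the number of arrays limits the precision. Replicates are separate mice.

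Gene symbols came from the platform annotation, which gave 1 symbol for 12563 clones, several for 412 and none for 4689. Stages were compared by limma 3.58.1 (lmFit and eBayes, two-sided) in R 4.3.3, for clones measured on 4 or more invasive and 2 or more PIN arrays. Benjamini-Hochberg adjustment ran over all 17207 clones or, after averaging the clones of a symbol per array, over all 8106 genes. The threshold was 0.15, with 0.05 as an alternative. Intervals are 95% intervals of the fit. The fit was tested on simulated data.

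The members and gene lists were chosen with earlier results of these data known. Named are all members and their clones, the 5 genes most like Krt18 over the 9 arrays (the rule asked for Krt8 too, which had no clone of its own), and up to 4 passing genes of each list with the smallest p, or 2 where none passed; not every such gene is described. Alternatives were other normalizations, filters, the methods' t-test and its unequal-variance form, robust empirical Bayes, array weights, other ways to combine clones, leaving out each array, and a replicate block. RefSeq promoter windows were searched with Python 3.11.15. Figures were made with matplotlib 3.10.9, numpy 2.4.6 and pandas 2.3.3.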

Additional observations from a re-analysis of the deposited data

Results flagged for a closer look

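Of 21 tests for a lone extreme value among the 6 invasive arrays, 2 stood out, where chance gives about 1 in 20. Cdh1 (mean of 4 clones) was at -0.95 on invasive replicate 6, and the other 5 invasive arrays lay between -0.11 and 0.10. Clone 16102 (Nlrp4e and Krt8) was at 0.91 on invasive replicate 3, and the other 5 lay between -2.16 and -1.03.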

How the results depend on the processing

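With each array left out, 0 or 1 of the 6 genes, 0 to 2 of the 18 clones and 0 to 3 of the 69 other epithelial genes passed, against 1, 0 and 2 with all arrays. The 69 genes gave 0 without invasive replicate 2 and without PIN replicate 2. The clones that passed were Krt7 and 14347 without invasive replicate 3, and Krt7 without PIN replicate 4. The median PIN SD of the 6 genes was 0.20 to 1.13 with a PIN array left out, the lowest without PIN replicate 4. Differences that changed sign with an array left out ran from -1.43 to 0.10 for Krt18, -0.77 to 0.08 for Cldn4 and its clone 17638, -0.39 to 1.54 for Epcam and its clone 10195, -1.69 to 0.06 for clone 3278 (Cldn3), -1.72 to 0.08, -0.97 to 0.13 and -1.51 to 0.22 for clones 6395, 11612 and 12213 (Krt18), and -0.44 to 1.42 and -0.78 to 1.42 for clones 1144 and 16102. None of these passed with any array left out.

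Of the 6 genes, 0 passed with scaling between arrays (where clone 11612 had 0.06), quantile normalization, the methods' t-test, its unequal-variance form, a threshold of 0.05, or every clone on its own; Krt7 had adjusted p of 0.0112 to 0.446 over its alternatives. With array weights 2 clones passed, Krt7 (adjusted p = 0.0157) and 10721 of Cdh1 (0.0878), and 1626 of all genes, against 457 with equal weights and 54 with the methods' t-test. The cause was not tested.

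Deviations from the group means had r of -0.14, -0.05 and -0.04 between same-numbered arrays. Arrays with different numbers had r of -0.11 to 0.19. With so few arrays, this check cannot decide whether the numbers pair samples. By design, each array held a separate mouse. With the replicate block, on arrays 2, 3 and 4 of each stage, 0 of the 6 genes passed (Krt7 1.46, adjusted p = 0.210), 90 genes passed in all and clone 14700 (Cdh1) had 0.36. The same arrays without the block, chosen after seeing the data, gave 0 and 0.36 too, with 137 genes passing. Signal over background is unknown here, and with 3 PIN arrays only large differences could pass.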
